A study of Mus musculus with 12 samples.

Results

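Offset 6-mer sites are among the weakest sites that a microRNA can pair with. The peaks described here are the Argonaute (Ago) peaks whose deposited seed code for miR-451a or miR-144-3p was that of an offset 6-mer (code 8), with no 6-mer or longer match (code 11 or above) to the other of these 2 microRNAs. Of the 106382 peaks in the table, 1329 met this rule. They comprised 302 peaks with a miR-451a site and 1030 with a miR-144-3p site, of which 3 carried both. A further 9 peaks with an offset site were left out because the other microRNA had a 6-mer or longer match there. The rule read the sequence codes and no measured value.

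The peaks come from HITS-CLIP, in which RNA crosslinked to a protein is precipitated and sequenced, of fetal liver cells from C57BL/6J mice. The WT embryos carried the miR-144/451 locus and the KO embryos, labelled miR-144/451-/-, lacked it, so both microRNAs were removed together and their contributions cannot be told apart within a peak that could pair with both. An Ago antibody or control IgG was used on each genotype, which gave 4 groups of 3 libraries: WT Ago (libraries 1, 9 and 10), KO Ago (3, 12 and 13), WT IgG (2, 6 and 11) and KO IgG (4, 8 and 14). The labels speak of 3 livers per genotype. The sources used here give neither the age of the embryos nor which Ago and IgG libraries share a liver, so p-values measure only how far these libraries vary, which may be partly technical.

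A microRNA guides Ago to an mRNA through its seed, the bases near its 5′ end that pair with the target, and a bound mRNA is repressed or degraded. The longest seed matches bind Ago most firmly, and an offset 6-mer, which pairs with bases 3 to 8 and not with base 2, is known as a marginal site. miR-144-3p and miR-451a are made from 1 transcript that the factor GATA1 drives in red cell precursors, and fetal liver is the main site of red cell formation before birth. miR-451a is unusual in that Ago2 itself, not Dicer, cuts its precursor.

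The sequences below show what the offset code requires and how it differs from the other seed matches. The mature microRNAs, credited to RefSeq (GRCm38.p6), lie at chr11:78073186-78073207 (plus strand) for miR-451a and at chr11:78073047-78073066 (plus strand) for miR-144-3p. Capitals mark the seed, bases 2 to 8, in the first pair of lines and bases 3 to 8, which pair with an offset site, in the second pair.
miR-451a, seed: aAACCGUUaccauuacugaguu
miR-144-3p, seed: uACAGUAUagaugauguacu
miR-451a, bases 3 to 8: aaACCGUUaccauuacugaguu
miR-144-3p, bases 3 to 8: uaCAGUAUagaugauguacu
The seeds of the 2 microRNAs differ. On the target, read 5′ to 3′, the next lines give the 7-mer-m8 site of each microRNA (the match to bases 2 to 8) with its offset part in capitals, and then the plain 6-mer site (bases 2 to 7) with the bases it shares with the offset site in capitals.
miR-451a 7-mer-m8 site: AACGGUu
miR-451a plain 6-mer site: ACGGUu
miR-144-3p 7-mer-m8 site: AUACUGu
miR-144-3p plain 6-mer site: UACUGu
An offset site is therefore a 7-mer-m8 site that lacks its last base. None of the 1329 peaks lay in a promoter window of RefSeq, so the meaning of the code was checked on other peaks. All 5 peaks with an offset code for miR-16-5p that lay within such windows held the match to bases 3 to 8 of miR-16-5p, and 0 held the match to bases 2 to 7. All 5 peaks with a plain 6-mer code for miR-451a held the match to bases 2 to 7 of miR-451a and 0 held the match to bases 3 to 8. The check was not complete for other microRNAs: of 3 peaks with a plain 6-mer code for miR-16-5p, 2 held the match to bases 2 to 7 and 1 held the match to bases 3 to 8, and of 2 such peaks for miR-21a-5p only 1 held the match to bases 2 to 7.

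Depth limits what single offset peaks can show. Reads in peaks numbered 147969 to 452157 in the 6 Ago libraries and 24622 to 42916 in the 6 IgG libraries. An offset peak held a median of 11 Ago reads over all 6 libraries, against 10 for all peaks, with a highest value of 224. The erythroid marker genes were detected except Hba-a1, Hba-a2, Hbb-bt and Hbb-bs, which had no peak. The 12 erythroid markers together took 1.22% to 1.41% of peak reads in the WT Ago libraries and 0.873% to 0.995% in the KO Ago libraries, and 14 hepatocyte markers took 0.629% to 1.89% and 1.17% to 2.33%. In the IgG libraries the erythroid markers took 0.979% to 1.90% in WT and 1.06% to 2.03% in KO, and these ranges overlapped. By the test described below, 27 of the 92 tested peaks of the erythroid markers fell in KO and 0 rose. The shares over all tested peaks were 17.6% lower and 1.40% higher. Of the 92 tested peaks of the hepatocyte markers, 0 fell and 0 rose. Shares of Ago reads do not measure RNA levels. Fetal liver holds both cell types, and fewer cells of a type, less RNA per cell and less Ago on that RNA cannot be told apart in these libraries.

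The offset peaks of miR-451a lay in coding sequence more often than those of miR-144-3p. By the class deposited for each peak, 51.7% of the miR-451a peaks (156 of 302) were in coding sequence, 26.5% in 3′UTRs, 9.60% between genes and 4.64% in introns. For miR-144-3p the shares were 35.1% in coding sequence (362 of 1030), 29.1% in 3′UTRs, 19.4% between genes and 11.3% in introns, close to those of all peaks (33.7%, 28.0%, 20.9% and 11.6%). No IgG read was found at 64.9% of the miR-451a peaks and 53.8% of the miR-144-3p peaks, against 50.7% of all peaks. A 6-mer or longer match to miR-16-5p, a microRNA from another locus, was present at 4.36% of the offset peaks and 6.38% of all peaks.

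The offset peaks spread over 981 gene names, and 876 of these had a single one. C330027C09Rik, Kdm7a (a histone demethylase), Ranbp2 (a nuclear pore protein) and Rictor (a subunit of the kinase complex mTORC2) had the most, with 4 each. In 33 genes both a miR-451a and a miR-144-3p offset peak were found. A further 229 offset peaks had no gene.

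Summed over all 302 peaks, so that every one counts whether or not it could be tested alone, the miR-451a offset peaks took a smaller share of the Ago reads in KO liver. Of all peak reads, they took 0.415%, 0.407% and 0.381% in the WT Ago libraries (1, 9, 10) against 0.204%, 0.186% and 0.208% in the KO ones (3, 12, 13). The 3 KO libraries all lay below the 3 WT libraries, with means of 0.401% ± 0.018 and 0.199% ± 0.012 (SD, n = 3 each) and a KO to WT ratio of 0.497. In the IgG libraries the same peaks took 0.209% ± 0.018 in WT and 0.219% ± 0.011 in KO. Summed over all classes, the mean KO Ago share was thus no higher than either IgG mean. The difference was much the same without the few peaks deep enough for a test: the other 295 took 0.333% ± 0.025 in WT and 0.170% ± 0.005 in KO, a ratio of 0.512. Among these 295, the ratio was 0.492 in coding sequence (153 peaks) and 0.479 in 3′UTRs (79 peaks), and 0.958 between genes (29 peaks), where WT and KO libraries overlapped. The comparison with IgG also differed by class. In coding sequence the mean KO Ago share, 0.0839%, was above the 0.0565% of WT IgG and the 0.0476% of KO IgG. The same held in 3′UTRs, at 0.0499% against 0.0247% and 0.0211%. Between genes the mean Ago share was below IgG in both genotypes, at 0.0246% in WT and 0.0236% in KO against 0.0898% and 0.112%.

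The 1030 miR-144-3p offset peaks showed a smaller difference, within the spread of the libraries. They took 0.978%, 1.05% and 0.905% of peak reads in WT libraries 1, 9 and 10 and 0.861%, 0.956% and 0.832% in KO libraries 3, 12 and 13. The groups overlapped, with means of 0.978% ± 0.073 and 0.883% ± 0.065 (SD, n = 3 each) and a ratio of 0.903. The IgG libraries gave 0.766% ± 0.039 in WT and 0.663% ± 0.110 in KO, a ratio of 0.866. Without the tested peaks, the Ago ratio was 0.904, with 0.865 in coding sequence (354 peaks), 1.03 in 3′UTRs (291), 0.851 in introns (115) and 0.789 between genes (198). The IgG ratios of these classes were 0.718, 0.954, 0.945 and 0.836, so in coding sequence and 3′UTRs the ratio was lower in IgG than in Ago. The IgG ratio in coding sequence rests on 136 WT and 94 KO reads, and its WT and KO libraries overlapped. The peaks with no code for either of these microRNAs or for miR-144-5p moved the other way in Ago, from 53.1% ± 2.0 to 60.9% ± 0.44, a ratio of 1.15. In IgG they took 61.0% ± 1.2 in WT and 63.3% ± 0.81 in KO. Shares sum to the whole library, and the part of this in the rise was not tested.

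**Figure D1:**
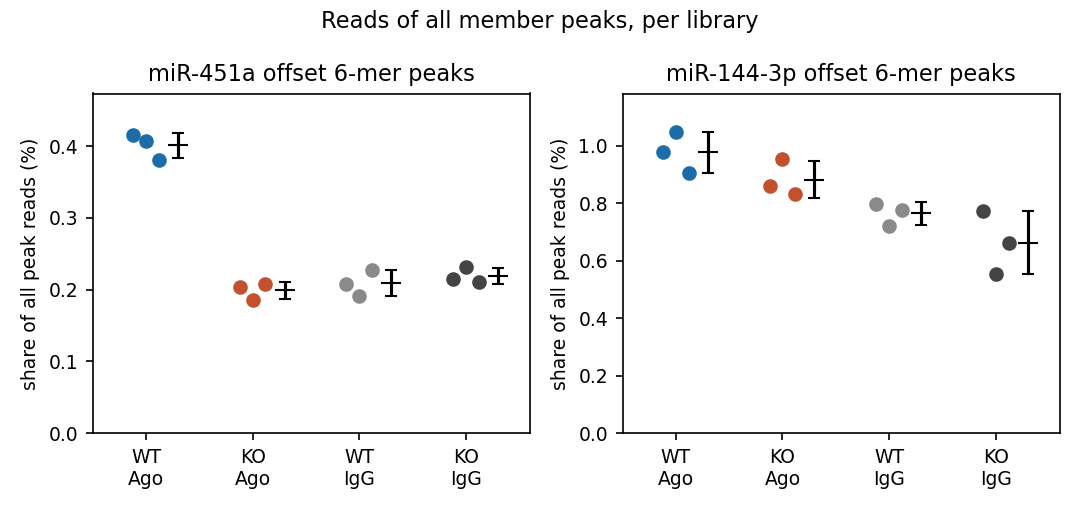
Share of all peak reads (%, linear axes from 0) held by the 302 miR-451a (left) and 1030 miR-144-3p (right) offset 6-mer peaks in each of the 12 libraries; points are libraries and bars the mean ± SD of 3. The miR-451a share has a mean of 0.401% in WT Ago and 0.199% in KO Ago, beside 0.209% and 0.219% in IgG, and the WT and KO Ago points of miR-144-3p overlap.

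For single peaks, KO and WT Ago libraries were compared by edgeR's quasi-likelihood test. P-values were adjusted over all 2425 tested peaks (Benjamini-Hochberg), with a threshold of 0.05. Only 27 offset peaks, in 24 genes and 2 intergenic places, had enough reads, and a peak could pass this filter through its WT reads alone, so the counts describe these 27 and not the other 1302. Of the 27, 11 fell in KO, 0 rose and 16 did not pass the test. Among all tested peaks 17.6% fell and 1.40% rose. At an unadjusted p under 0.05, 1 of the 27 was higher in KO, against 5.57% of all tested peaks. DESeq2 and limma-voom also called 0 of the 27 higher, against 0.289% and 1.24% of all. Levels below are in CPM, read counts scaled to a fixed library total, here TMM-scaled over the tested peaks, and log2 changes are KO over WT with their standard errors.

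Of the 7 tested miR-451a offset peaks, 5 fell in KO, among them those in Tnfaip2, Cd47, Slc6a9 and Actb. The median log2 change of the 7 was -2.11, against 0.09 for all tested peaks. Those in Trf and Mfge8 did not pass the test.

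Tnfaip2, a gene induced by tumour necrosis factor, had the deepest fall of the 27. Its peak at chr12:111453812-111453878 (plus strand) held 44, 88 and 36 WT Ago reads (libraries 1, 9, 10, an order kept throughout) against 1, 6 and 2 KO reads (libraries 3, 12, 13). Every WT library was above every KO library, at 1220 ± 170 CPM against 73.2 ± 42.1 (mean ± SD, n = 3 each). The log2 change was -3.91 ± 0.42 (adjusted p = 7.15e-05, edgeR), and 5 WT and 4 KO IgG reads fell on the peak.

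Cd47 encodes a surface protein that protects cells, red cells included, from uptake by macrophages. Its peak at chr16:49912235-49912291 (plus strand) held 25, 53 and 18 WT reads and 1, 5 and 0 KO reads. The groups did not overlap, at 682 ± 142 and 41.5 ± 48.5 CPM, with a log2 change of -3.66 ± 0.53 (adjusted p = 0.000154, edgeR).

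Slc6a9 encodes the glycine transporter GlyT1, and glycine is a substrate of heme synthesis. Its peak at chr4:117869200-117869238 (plus strand) held 18, 54 and 12 WT reads and 2, 7 and 6 KO reads. All KO libraries were below all WT libraries, and WT library 9 was the highest, at 862 CPM against 438 and 394 in the others. The log2 change was -2.11 ± 0.48 (adjusted p = 0.00384, edgeR), and without WT library 9 it was -1.59 with an adjusted p of 0.0509.

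The Tnfaip2, Cd47 and Slc6a9 peaks were all classed as intronic in the deposited table. On the RefSeq gene spans of the same build they lay 1140, 212 and 67 bases before the 3′ end of the gene. The class is thus that of the deposited annotation, and the 3 peaks lie near the ends of these genes. Of the 14 miR-451a offset peaks with an intron class, these 3 were the ones tested.

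The Actb peak, in the 3′UTR of cytoplasmic beta-actin at chr5:142903588-142903624 (minus strand), held 22, 35 and 13 WT reads and 5, 15 and 7 KO reads. The KO libraries lay below the WT libraries, at 233 ± 73.8 against 507 ± 70.1 CPM. The log2 change was -1.11 ± 0.36 and its adjusted p of 0.0430 (edgeR) was close to the threshold: the call was lost in 10 of 13 alternatives, with adjusted p-values from 0.0390 to 0.253 over all of them.

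Trf, the plasma iron carrier transferrin and a product of hepatocytes, had a coding peak at chr9:103228032-103228068 (minus strand). It held 41, 29 and 56 WT reads and 40, 31 and 27 KO reads. The groups overlapped, and the log2 change was -0.21 ± 0.44 (adjusted p = 0.813, edgeR). The hepatocyte marker list, to which Trf belongs, ranged from 0.629% to 1.89% between WT Ago libraries, and its part in this value was not tested. The coding peak of Mfge8, a secreted protein that marks dying cells for uptake, held 12, 9 and 8 WT reads and 10, 4 and 10 KO reads, with a log2 change of 0.01 ± 0.54 (adjusted p = 0.995, edgeR). Its sequence also had a single-mismatch code for miR-144-3p.

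**Figure D2:**
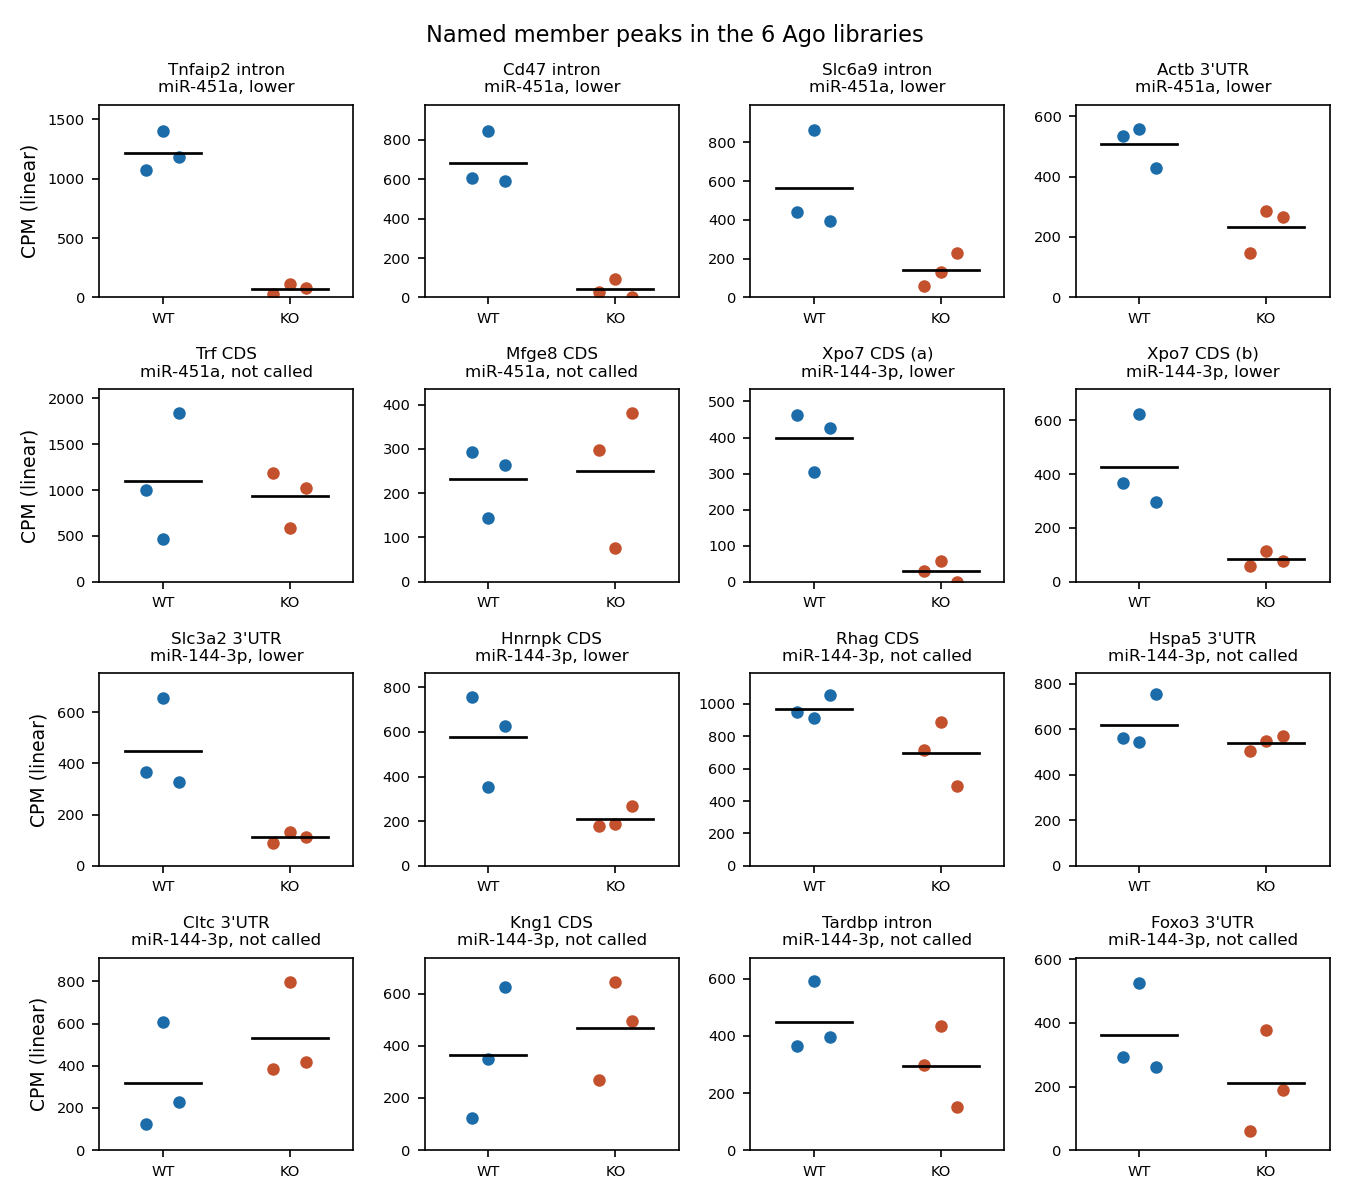
CPM (linear axes from 0) of named offset 6-mer peaks in the 3 WT and 3 KO Ago libraries; points are libraries, lines are means, and each title gives the gene, the deposited class, the microRNA and the call. KO points lie below all WT points for every peak shown that was called lower and for Rhag, which was not called.

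The other peaks of these genes give the Ago reads on the same gene outside the offset site. They do not measure the RNA level, and some have codes for the deleted microRNAs themselves. The 2 other tested peaks of Tnfaip2 had log2 changes of 0.17, at a peak with a plain 6-mer code for miR-144-3p, and 0.52, and the reads of all its remaining peaks came to 335 ± 48.1 CPM of all peak reads in WT and 322 ± 15.7 in KO (n = 3 each). For Slc6a9 the 1 other tested peak was at -0.06, with 320 ± 111 and 304 ± 13.2 CPM over the rest of the gene. In both genes no other tested peak fell, although the difference between the offset peak and the others was not tested. Cd47 was less clear: of 5 other tested peaks, with a median of -0.83, 1 fell, and the rest of the gene went from 1303 ± 238 to 768 ± 139 CPM. Of the 9 other tested Actb peaks, 1 fell, a coding peak with a miR-451a code for a mismatch at base 7 (-1.46 ± 0.36). None of the 15 other tested Trf peaks fell, and their median was 0.47.

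**Figure D3:**
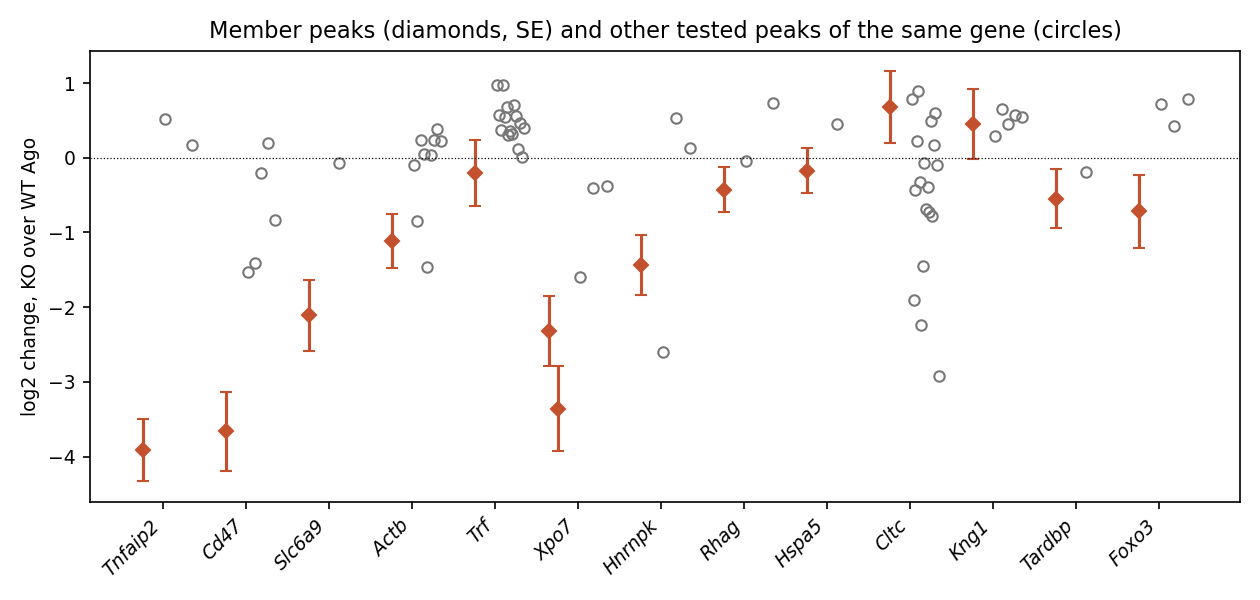
Log2 change, KO over WT Ago, of named offset 6-mer peaks (diamonds, ± SE) and of the other tested peaks of the same gene (circles). The diamonds of Tnfaip2 and Slc6a9 lie far below the circles of their genes, whereas the offset peak of Cltc lies within the range of its gene's circles.

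Of the 20 tested miR-144-3p offset peaks, 6 fell in KO, among them 2 in Xpo7 and 1 each in Slc3a2, Hnrnpk and Gm7964. The median log2 change over the 20 was -0.30, and 14 did not pass the test. That share, 30.0%, is nearer to the 17.6% of all tested peaks than the 71.4% for miR-451a.

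Xpo7 encodes a nuclear exporter that red cell precursors express strongly as their nucleus condenses. The first of its coding peaks, at chr14:70693921-70693951 (minus strand), held 19, 19 and 13 WT reads and 1, 3 and 0 KO reads. The second, at chr14:70668666-70668696, held 15, 39 and 9 WT reads and 2, 6 and 2 KO reads. Neither peak had overlapping groups. The levels were 398 ± 83.6 and 28.9 ± 28.4 CPM at the first peak (log2 change -3.36 ± 0.57, adjusted p = 0.000409, edgeR) and 428 ± 172 and 83.1 ± 27.8 CPM at the second (-2.32 ± 0.47, adjusted p = 0.00157). Both lie in 1 gene and are not independent. Of the 3 tested Xpo7 peaks without an offset site, 1 in the 3′UTR also fell (-1.60 ± 0.45), and that peak had a miR-144-3p code for a mismatch at base 7. The reads of all Xpo7 peaks but the first, the second included, went from 1219 ± 312 CPM of all peak reads in WT to 669 ± 157 in KO, which was not tested.

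Slc3a2 encodes the heavy chain shared by several amino acid transporters (CD98). Its 3′UTR peak at chr19:8707598-8707625 (minus strand) held 15, 41 and 10 WT reads and 3, 7 and 3 KO reads. The groups did not overlap (449 ± 178 and 112 ± 21.9 CPM), with a log2 change of -2.01 ± 0.44 (adjusted p = 0.00287, edgeR). No other Slc3a2 peak was tested, and the reads of its remaining peaks also went down, from 170 ± 77.0 to 82.6 ± 26.0 CPM of all peak reads (180 WT and 62 KO reads), a difference that was not tested.

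The Hnrnpk and Gm7964 peaks had identical reads in all 12 libraries, so they are 1 measurement. Hnrnpk encodes an RNA-binding protein, and RefSeq lists Gm7964 as a pseudogene. The peaks, at chr13:58399913-58399948 (minus strand) and chr7:83756004-83756039 (plus strand), held 31, 22 and 19 WT reads and 6, 10 and 7 KO reads each. The groups did not overlap, and the log2 change was -1.43 ± 0.40 (adjusted p = 0.0181, edgeR). The sequence also had a single-mismatch code for miR-451a, and the call was lost in 2 of 12 alternatives: without KO library 12 (log2 change -1.31, adjusted p = 0.0659) and with all 12 libraries in 1 fit (-1.10, adjusted p = 0.111). Adjusted p-values over the alternatives ranged from 0.00499 to 0.111.

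The deepest miR-144-3p peaks that did not pass the test included that of Rhag, a membrane glycoprotein of the red cell Rh complex. Its coding peak at chr17:40836453-40836482 (plus strand) held 39, 57 and 32 WT reads and 24, 47 and 13 KO reads. The KO libraries, at 494 to 891 CPM, were all below the WT libraries, at 910 to 1052 CPM, but the log2 change was only -0.43 ± 0.30 (adjusted p = 0.430, edgeR). Foxo3, a transcription factor, was listed here as a published target of this locus. Its 3′UTR peak held 12, 33 and 8 WT reads and 2, 20 and 5 KO reads. Its groups overlapped, and the log2 change was -0.72 ± 0.49 (adjusted p = 0.410). The intronic peak of Tardbp, an RNA-binding protein, was at -0.55 ± 0.39 (adjusted p = 0.431). For Hspa5, a chaperone of the endoplasmic reticulum, the 3′UTR peak was at -0.17 ± 0.30 (adjusted p = 0.780).

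Values above 0 were seen too, though none passed the test over all 6 libraries. The 3′UTR peak of Cltc, the clathrin heavy chain, held 5, 38 and 7 WT reads and 13, 42 and 11 KO reads. Its groups overlapped, with a log2 change of 0.68 ± 0.48 (adjusted p = 0.428, edgeR). WT library 9 alone set the high WT value, and without it the change was 1.72 and passed the test (adjusted p = 0.0236). The coding peak of Kng1, a kininogen made by hepatocytes, was at 0.45 ± 0.47 (adjusted p = 0.610), beside the spread in hepatocyte markers given above, whose part was not tested. The largest positive value among the 27 was at an intergenic peak, chr6:3201284-3201319, with 7, 11 and 8 WT reads, 11, 17 and 14 KO reads and a log2 change of 0.94 ± 0.38 (adjusted p = 0.110, edgeR). That peak held more IgG than Ago reads, 52 against 26 in WT and 74 against 42 in KO.

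By class of the transcript, 6 of the 11 tested offset peaks in coding sequence fell, against 2 of 10 in 3′UTRs, 3 of 4 in introns and 0 of 2 between genes. Of all tested peaks 17.6% fell. For miR-144-3p alone the counts were 5 of 8 in coding sequence and 1 of 9 in 3′UTRs, where the 5 include both Xpo7 peaks and the shared reads of Hnrnpk and Gm7964 as 2 peaks. The order of the classes did not hold at a minimum count of 5, where 9 of 43 coding peaks (20.9%) and 10 of 41 3′UTR peaks (24.4%) fell, against 13.3% of all tested peaks. For miR-144-3p these counts were 7 of 34 and 5 of 29. Every KO library was below every WT library at 5 of the 7 tested miR-451a peaks and 7 of the 20 tested miR-144-3p peaks, against 22.3% of all tested peaks.

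Leaving out 1 library moved the counts, through both the values and the number of peaks deep enough for a test. Without WT library 1, 4 of 22 tested offset peaks fell and none of these was a miR-144-3p peak, and without WT library 9 or KO library 12 the counts were 6 of 23 and 7 of 25. Without WT library 10 or KO library 3 they were 18 of 55 and 19 of 57. With all 12 libraries in 1 fit 7 of the 27 fell, 4 of miR-451a and 3 of miR-144-3p, against 14.6% of all tested peaks. The miR-451a peaks of Tnfaip2 and Cd47, and the Slc3a2 and both Xpo7 peaks, passed the test in every alternative in which they were tested.

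The median change of the offset peaks was closer to 0 than that of the plain 6-mers and longer matches of the same microRNA. For miR-451a, 37 of 39 tested peaks with a 7-mer or 8-mer fell (median log2 change -2.97), 41 of 44 with a plain 6-mer (-3.72), 5 of 7 with an offset 6-mer (-2.11), 36 of 51 with a mismatch at base 7 (-2.60) and 5 of 17 with a mismatch at base 2 (0.36). The summed reads of all peaks of each type, tested or not, gave KO to WT ratios of 0.139, 0.156, 0.497, 0.343 and 0.755 in the same order. By summed reads, offset peaks thus had a higher KO to WT ratio than peaks with a mismatch at base 7. Both types fail to pair at 1 seed position, which is base 2 in an offset site. In KO Ago, offset peaks took 0.199% of peak reads, against 0.209% in WT IgG and 0.219% in KO IgG. For a mismatch at base 7 these shares were 0.709%, 0.884% and 0.751%. What part this background had in the ratios was not tested. These types differ in number and depth, and the differences between them were not tested.

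For miR-144-3p the medians were closer to 0 throughout. Of the tested peaks, 41 of 75 with a 7-mer or 8-mer fell (median -1.30), 20 of 59 with a plain 6-mer (-0.54), 6 of 20 with an offset 6-mer (-0.30) and 44 (30.6%) with a mismatch at base 7 (-0.26). Summed reads gave ratios of 0.457, 0.749, 0.903 and 0.785. Peaks with a mismatch at bases 3 to 6 gave 1.01, and 43 of 380 of them fell. Of the 1210 tested peaks with no code for any microRNA of the locus, 76 fell, with a median of 0.21.

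**Figure D4:**
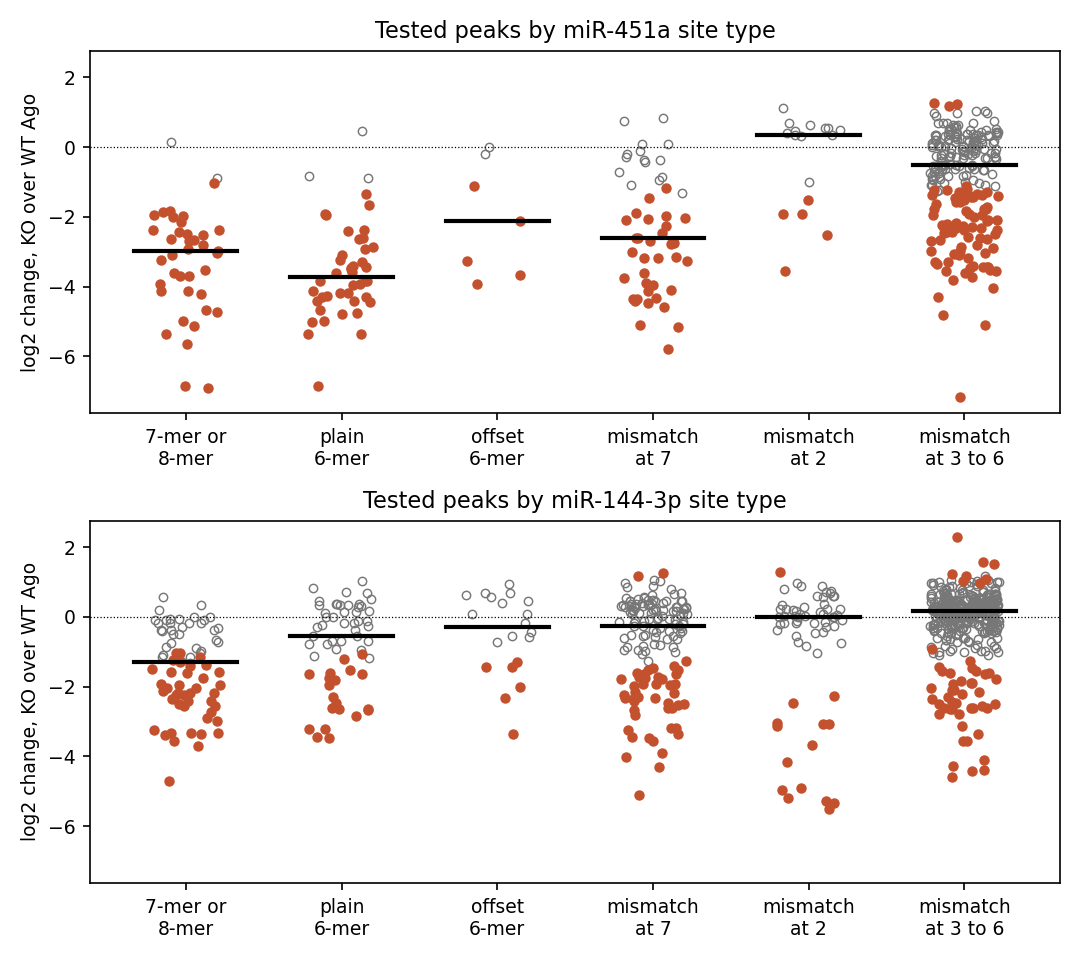
Log2 change, KO over WT Ago, of every tested peak by its miR-451a (top) or miR-144-3p (bottom) site type; filled points passed the test, open points did not, and bars are medians. The 7 miR-451a offset peaks have a median of -2.11, between the plain 6-mers (-3.72) and the peaks with a mismatch at base 2 (0.36), and the 20 miR-144-3p offset peaks a median of -0.30.

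With no filter 55 of the 1329 offset peaks fell, 28 of miR-451a and 27 of miR-144-3p, against 2.54% of all 106381 peaks with a read. A lower filter, with a minimum count of 5 in place of 10, brought 111 offset peaks into the test and called 25 of them lower and 0 higher, against 13.3% lower and 0.590% higher of all 9485 peaks. For miR-451a 12 of 27 fell (median -1.14), and 25 of the 27 had a log2 change below 0. For miR-144-3p 13 of 84 fell (median -0.09), and 42 had a log2 change below 0. Of all 9485 peaks, 4588 had a log2 change below 0. The peaks added to the calls are named here after their values were seen. For miR-451a they were 3′UTR peaks of Dennd4a (46 WT and 3 KO reads over 3 libraries each), Atp2b4 (a calcium pump, 40 and 5), Fam109b (25 and 1) and 2810417H13Rik (32 and 5), and a coding peak of Ep400 (a chromatin remodeller, 25 and 5). An intergenic peak and a Gm5593 peak with identical reads in all 12 libraries (35 and 9) were also added. For miR-144-3p they included Anapc4, a subunit of the anaphase-promoting complex, with 10, 12 and 6 WT reads and no KO read. That peak also had an offset code for miR-144-5p, the other strand of the deleted hairpin. Others were Slc25a39 (a mitochondrial carrier, 41 and 4), Racgap1 (a protein of cell division, 44 and 6), St3gal5 (a sialyltransferase, 41 and 11), Wdhd1 (34 and 8), 4833439L19Rik (29 and 4) and an intergenic peak (31 and 6) that also had a 7-mer code for miR-144-5p.

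Offset peaks in the red cell genes were few, and those that fell lay in coding sequence. Of 47 erythroid genes, 6 held 9 offset peaks, of which 5 were tested and 4 fell, among them both Xpo7 peaks, with Rhag not called. Of all 186 tested peaks in these genes, 47 fell and 2 rose, against 17.6% and 1.40% of all tested peaks. The median log2 change of the 186 was -0.39. The erythroid marker share of the KO Ago libraries was below that of every WT Ago library, while the IgG ranges overlapped, as given above. The part of that share in these values was not tested. The remaining offset peaks of the list were in Slc25a37, the mitochondrial iron importer (29 WT and 18 KO reads at its 3′UTR peak), and in Kel. Of 25 genes of the Ago pathway, 6 held 8 offset peaks and 0 were deep enough for the test. The deepest of these, in the 3′UTR of Cnot6, a subunit of the deadenylase complex, held 14 WT and 13 KO reads. Of 22 genes listed here as published targets of the locus, Foxo3, Rab14, Rab5a, Atf2 and Ppm1d were among those that held 1 offset peak. Only that of Foxo3 was tested and it did not pass, whereas 7 of the list's 16 tested peaks fell. The coding peak of Rab5a, a GTPase of early endosomes, held 7 WT reads and 0 KO reads.

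The IgG libraries give the background of the precipitation, though at few single peaks. Because of their depth, only 894 peaks could be tested between WT Ago and WT IgG, of which 35.9% were higher in Ago and 37.9% lower. A peak could pass the filter through its Ago or its IgG reads alone, so the counts describe only the peaks tested. Among the 10 offset peaks tested, 7 were higher in Ago. For miR-451a these were Cd47, with 25, 53 and 18 Ago reads and 0, 0 and 1 IgG reads (log2 change of Ago over IgG 5.36 ± 0.86, adjusted p = 0.000289, edgeR), Tnfaip2 (4.12 ± 0.68) and Trf (2.95 ± 0.76). For miR-144-3p they were Rhag (3.73 ± 0.69), Hspa5 (1.98 ± 0.48) and the shared Hnrnpk and Gm7964 reads (2.47 ± 0.55). The other 3, all intergenic, were lower in Ago. Without any 1 of the WT Ago libraries only 2 offset peaks could be tested and 0 were higher, and without 1 of the IgG libraries 12 to 15 of 30 to 34 were higher.

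In the authors' deposited table of differential peaks, which lists 6651 peaks, 94 of the offset peaks appear, 28 of miR-451a and 66 of miR-144-3p. At a false discovery rate under 0.05 in the authors' deposited table, 25 of the 28 and 21 of the 66 were lower in KO and none was higher, against 35.7% lower and 1.29% higher of all listed peaks. The authors' deposited table gives a median log2 change of -2.49 for miR-451a and -0.78 for miR-144-3p, and -0.65 for all listed peaks. Its lowest values among the offset peaks were -4.50 for Slc1a5, a glutamine transporter, with 30 WT and 0 KO reads, and -4.43 for Anapc4. Of the 11 offset peaks called lower above, 4 appear in the authors' deposited table. All 4 are lower there, among them Slc6a9, Slc3a2 and Gm7964. The rest are not listed in it, those of Tnfaip2 and Cd47 and both of Xpo7 included. The authors' deposited table uses the same Ago libraries, so it is no independent measurement.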

How the data were processed

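Ago and IgG HITS-CLIP libraries of WT and KO fetal liver were compared at peaks on mm10. The submitters' processing notes name cutadapt, STAR, bedtools and limma, and the sources used here do not give their versions, roles or the peak caller. Deposited counts are unscaled, and a read counts where at least 16 bases overlap the peak, per the file's column description. The authors' deposited coverage columns are a signal of maximum height per library. The deposited seed codes are a score of the best match, and the authors' IgG ratio is the IgG over Ago height. The authors' deposited table of differential peaks gives log2 changes and p-values, used only as described.

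Counts were tested with edgeR 4.0.16 in R 4.3.3 (quasi-likelihood, TMM, filterByExpr with a minimum count of 10 and total of 15, Benjamini-Hochberg threshold 0.05), fitted on the whole table with the 6 libraries compared. The script was tested on simulated data. Alternatives were library size alone, DESeq2 1.42.0 size factors and test, limma-voom (3.58.1), other filters, all 12 libraries in 1 fit, leaving out each library, and other choices of members; the other peaks of a gene and the sums without tested peaks were added after seeing the data. The members and gene lists were chosen with earlier results of these data known. Named peaks were the tested miR-451a members; for miR-144-3p, 1 per gene, up to 12 called lower and 6 higher by p and the 5 deepest not called; and up to 4 tested members of each list. RefSeq symbols matched 934 of the 981 gene names, and synonyms a further 32. Names turned into dates (6 members) are not printed. No genome was used, so peak sequences are not shown. Some peaks that the counts include are not reported by name here.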

Additional observations from a re-analysis of the deposited data

How the results depend on the processing

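Of 235 alternatives for the named peaks, 202 kept direction and call, 21 lost the call, 1 gained it and 11 turned the sign, 0 of these at a peak called in either fit. With all 12 libraries in 1 fit Trf turned from -0.21 to 0.15 and Hspa5 from -0.17 to 0.16. Mfge8, at 0.01, turned to -0.34 with limma-voom, -0.087 with no filter and -0.013 at a minimum count of 5. Leaving out a library gave -0.59 to 0.35 for Trf, -0.32 to 0.61 for Mfge8 and -0.084 (without WT library 1) to 0.89 for Kng1; the cause was not tested. The count of offset peaks lower in KO was 11 (5 for miR-451a, 6 for miR-144-3p). It was 55 (28 and 27) with no filter, 25 (12 and 13) at a minimum count of 5, and 7 with all 12 libraries in 1 fit (3 for miR-144-3p). The miR-451a median of -2.11 moved to -1.35 with no filter and -1.14 at a minimum count of 5. The miR-144-3p median of -0.30 moved to -0.088 at a minimum count of 5 and to -0.046 without the Hnrnpk and Gm7964 peaks that share reads. With all 12 libraries in 1 fit it turned to 0.029, and the median over both was -0.23; the cause was not tested. Leaving out each library gave 4 to 19 lower peaks (3 to 9 for miR-451a, 0 to 11 for miR-144-3p) and 0 to 1 higher (Cltc, without WT library 9). The median over both then ranged from -0.79 to -0.14, that of miR-451a from -2.41 to -1.59 and that of miR-144-3p from -0.30 to 0.35, which turned sign without WT library 9; the cause was not tested. Peaks higher in Ago than IgG in WT numbered 66 (27 and 39) with no filter, and 0 to 15 (0 to 7 for miR-451a, 0 to 8 for miR-144-3p) when a library was left out. No paired analysis was possible because the library numbers are not shared between groups. Depth limits most offset peaks: 1302 of 1329 held too few reads for a test at a minimum count of 10, and 111 could be tested at a minimum count of 5.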
